A study of Mus musculus with 2 samples.

Results

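The 27 genes described here make cholesterol or control how much of it a cell makes, and they were taken by name from the 24130 genes of the count matrices. All 27 were found. In pathway order, 20 code for synthesis enzymes (Acat2, Hmgcs1, Mvk, Pmvk, Mvd, Idi1, Fdps, Ggps1, Fdft1, Sqle, Lss, Cyp51, Tm7sf2, Lbr, Msmo1, Nsdhl, Hsd17b7, Ebp, Sc5d and Dhcr7). The other members are 5 genes of the SREBP control system (Srebf1, Srebf2, Scap, Insig1 and Insig2) and 2 genes of sterol handling (Stard4 and Soat1).

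Hippocampal tissue of male C57BL/6 mice, 6 months old, was split into single cells and their RNA counted in 2 libraries, 1 library per group. Control mice received saline. EMF_AuNPs mice had gold nanoparticles injected into the hippocampus and were kept for 3 weeks in an electromagnetic field between Helmholtz coils, and the labels do not make clear whether control mice were also kept there. With 1 library per group, differences between the libraries were not tested and have no check by replicates, and the number of mice behind each library is not given. Every interval below is a 95% interval for counting error only.

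The control library held 21583 barcodes with a median of 1904 unique molecular identifiers (UMIs, each standing for 1 captured RNA molecule), and the EMF_AuNPs library held 7003 with a median of 2310. Both libraries shared 38 barcodes. Cells were assigned to a type by marker genes, which placed 15857 control and 5222 EMF_AuNPs barcodes in exactly 1 type. Barcodes that passed the cut for several types (3048 and 717) or for none (2678 and 1064) were left out. The main types were astrocytes (2876 control and 1371 EMF_AuNPs cells), oligodendrocytes (5802 and 1107), endothelial cells (2544 and 1025) and microglia (2804 and 708). Neurons were scarce for hippocampal tissue, with 93 and 5 excitatory neurons, so their levels could be given for the control library only.

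Cells build cholesterol from acetyl-CoA through mevalonate, isoprenoids, squalene and lanosterol, and the last enzymes trim lanosterol to cholesterol. When the membrane of the endoplasmic reticulum is poor in sterol, the escort protein Scap carries the SREBP transcription factors (the products of Srebf1 and Srebf2) to the Golgi, where they are cut and released to switch on most of these enzyme genes. Insig proteins hold Scap back when sterol is plentiful. Plasma cholesterol does not cross the blood-brain barrier to any large extent, so the brain makes its own, with astrocytes and myelinating oligodendrocytes known as its main producers.

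SREBPs bind the sterol regulatory element in promoters, usually beside sites of the CCAAT-binding factor NF-Y and GC-box factors, so the promoters of the members were searched for these letters. RefSeq promoter windows (GRCm38.p6, from 250 bases before to 50 bases after a start) were at hand for 23 of the 27 members, in 31 windows, and Fdps, Fdft1, Sqle and Stard4 were not matched. Printed below are the 150 bases before the start of Hmgcs1 (plus strand, chr13:119690201-119690350), Mvd (minus strand, chr8:122443423-122443572) and Insig1 (plus strand, chr5:28071213-28071362), whose RNA was higher in EMF_AuNPs astrocytes, and of Soat1 (minus strand, chr1:156474332-156474481), whose RNA was lower. Where RefSeq and GENCODE M21 placed the start differently, the more upstream one was used. The sequences run 5′ to 3′ on the strand of the gene, and capitals mark matches to TCACNCCAC or CCAAT on either strand.
Hmgcs1: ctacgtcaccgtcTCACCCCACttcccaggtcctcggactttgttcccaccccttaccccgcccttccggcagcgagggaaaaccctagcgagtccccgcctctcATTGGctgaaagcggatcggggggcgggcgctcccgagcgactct
Mvd: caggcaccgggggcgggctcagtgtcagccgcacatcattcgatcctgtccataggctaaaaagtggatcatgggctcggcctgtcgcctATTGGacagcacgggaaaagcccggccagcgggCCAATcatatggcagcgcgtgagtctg
Insig1: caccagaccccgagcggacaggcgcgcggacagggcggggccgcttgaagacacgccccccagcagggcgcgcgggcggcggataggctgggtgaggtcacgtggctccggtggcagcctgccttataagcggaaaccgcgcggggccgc
Soat1: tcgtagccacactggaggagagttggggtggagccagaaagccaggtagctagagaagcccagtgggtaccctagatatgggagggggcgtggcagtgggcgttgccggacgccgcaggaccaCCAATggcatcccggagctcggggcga

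Hmgcs1 was the 1 member with a match to TCACNCCAC, the core of the sterol regulatory element, in its windows (1 of 31 member windows, 3.23%, beside 1.24% of the 32851 windows of all genes). The full published element, of which this core is a part, was in 0 of 31 member windows and in 0.0913% of all windows. CCAAT was in 22 of 31 member windows (71.0%) and in 37.4% of all windows, and GGGCGG, the GC box, was in 25 (80.6%) and in 35.7%. The Mvd stretch above holds 2 CCAAT matches, and those of Hmgcs1 and Soat1 hold 1 each. The Insig1 stretch holds none of the marked motifs but 2 GC boxes. These matches describe letters only.

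Astrocytes carried the highest summed level of the 20 synthesis enzymes in both libraries. Levels are given as CPM, the UMIs of a gene per 1e6 UMIs of all genes but haemoglobin in that cell type and library. The sum was 1506 CPM (1473 to 1540) in control astrocytes and 2309 CPM (2259 to 2360) in EMF_AuNPs astrocytes. Oligodendrocytes came next, with 1059 (1042 to 1076) and 1377 (1340 to 1415). The control order then ran through pericytes (704), endothelial cells (669), smooth muscle cells (504), microglia (486) and ependymal cells (471) to choroid plexus cells (412). Pericytes and endothelial cells did not differ beyond their intervals in the control library, nor did smooth muscle cells, microglia and ependymal cells, and the intervals of ependymal and choroid plexus cells overlapped as well. Among types with too few EMF_AuNPs cells to compare, control fibroblasts stood at 890 CPM (740 to 1062), excitatory neurons at 593 (514 to 680) and Cajal-Retzius cells at 514 (398 to 654). Border macrophages stood at 492 CPM (59 UMIs) among control cells and 528 CPM (69 UMIs) among EMF_AuNPs cells, too few UMIs for single members.

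**Figure D1:**
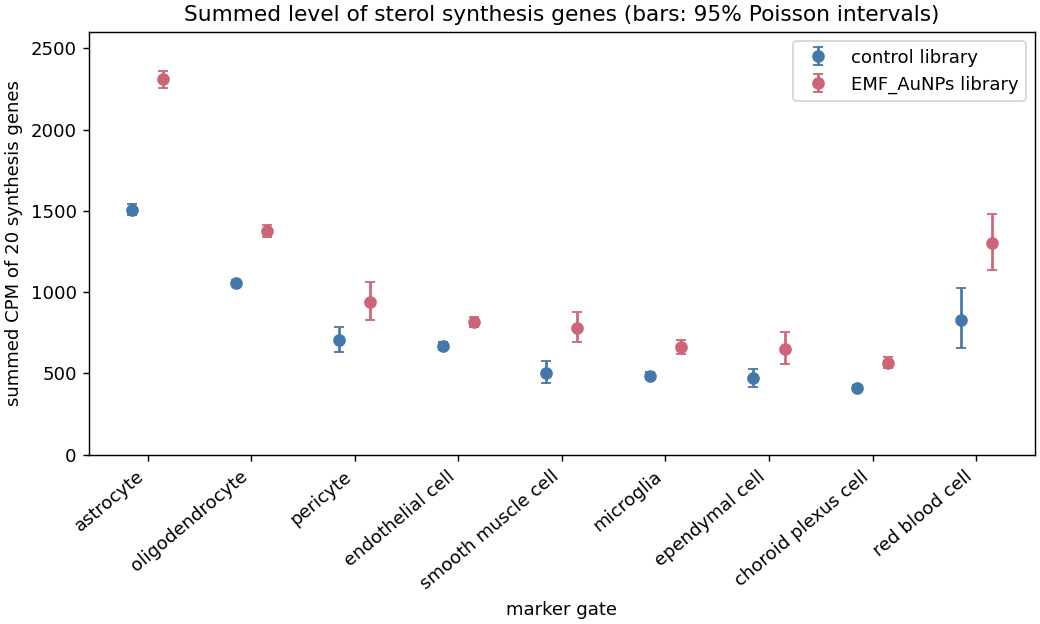
Summed level of the 20 synthesis enzymes (vertical axis, CPM) in 9 cell types (horizontal axis), with 1 point per library and bars for 95% Poisson intervals. Astrocytes are highest in both libraries, at 1506 CPM (control) and 2309 CPM (EMF_AuNPs). Red blood cells stand at 826 and 1301 CPM of their UMIs outside haemoglobin, which is not a background level for the other types.

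Mature red cells should make none of these transcripts, so their RNA in red blood cells was read as coming from other cells, which was not tested. The few UMIs of red blood cells outside haemoglobin (96794 over 263 control cells and 178285 over 358 EMF_AuNPs cells) held 826 and 1301 CPM of synthesis enzyme RNA. These CPM are shares of that remainder, so they are not the level of foreign RNA in other types. The remainder also held RNA of red cells, with the marker Alas2 at 4009 and 4229 CPM. Markers of astrocytes in those cells stood at 35.8% and 29.9% of their level in astrocytes. In microglia the same astrocyte markers stood at 14.9% of the astrocyte level in control and 10.7% in EMF_AuNPs cells, in endothelial cells at 11.3% and 8.62%, in oligodendrocytes at 10.5% and 7.95%, and in choroid plexus cells at 2.02% and 1.57%. Oligodendrocyte markers went the other way, from 4.15% of their own level in control microglia to 8.71% in EMF_AuNPs microglia, and from 3.83% to 6.10% in astrocytes.

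When RNA in proportion to these foreign markers was subtracted, an alternative chosen after seeing the data that can take off too much, the enzyme sums were 1427 and 2176 CPM in astrocytes and 869 and 1143 in oligodendrocytes. The same step left 415 and 457 CPM in endothelial cells, 189 and 266 in microglia, and 347 and 490 in choroid plexus cells. Astrocytes stayed highest. Less of the counted level remained in microglia than in any other of these 5 types.

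For single members, the highest type is named among the 8 compared types of the heat map, without red blood cells, border macrophages or the types counted in the control alone. At the entry of the pathway, Hmgcs1, the cytosolic synthase that makes HMG-CoA, was highest in astrocytes (169 CPM in the control and 266.5 in EMF_AuNPs) and next in oligodendrocytes (134 and 165). Acat2, the thiolase that joins acetyl-CoA units, was low in every type, at most 27.5 and 35.3 CPM in astrocytes. Of the kinases and the decarboxylase that turn mevalonate into isopentenyl diphosphate, Mvd was highest in astrocytes (41.6 and 69.7 CPM), with oligodendrocytes at 17 and 27.8. Pmvk, the later kinase, did not peak in 1 type, with 111 CPM in control pericytes, 109 in astrocytes and 103 in smooth muscle cells, and 47.1 in microglia and choroid plexus cells. Mvk, the earlier kinase, reached 35.9 CPM in control astrocytes and 32.4 in endothelial cells, with overlapping intervals.

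Fdps, the synthase of farnesyl diphosphate, was the 1 enzyme highest in oligodendrocytes, with 82.8 CPM (78.2 to 87.7) in the control and 166 CPM (154 to 180) in EMF_AuNPs. Its astrocyte levels were 69.9 (62.9 to 77.6) and 137 (125 to 149), apart from those of oligodendrocytes by their intervals in both libraries. Red blood cells held 124 (64.1 to 216.6) and 179 CPM (123 to 253), with intervals that overlapped those of oligodendrocytes, and control fibroblasts held 86.9 (44.9 to 151.7). Idi1, the isomerase before it, was highest in astrocytes at 92.1 and 76.0 CPM. Ggps1, which leads off to geranylgeranyl groups for proteins, was highest in pericytes (49.2 and 68.5 CPM) with intervals that overlapped those of the next type.

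From squalene to lanosterol, Fdft1 (squalene synthase) was highest in astrocytes at 146 and 203 CPM. Sqle, the epoxidase that is a known control point of the pathway, was highest in astrocytes (79.8 and 144 CPM), followed by ependymal cells (62.2 and 117), with overlapping intervals in both libraries. Oligodendrocytes held less Sqle, 30.1 and 51.8 CPM. Lss, the cyclase that closes the ring, was low throughout, with 22 and 23.5 CPM in astrocytes.

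Msmo1, the oxidase that acts on the methyl groups at carbon C4, was far more abundant in astrocytes than in other types. Its level was 268 CPM (254 to 283) in control astrocytes, against 79.7 (75.1 to 84.4) in oligodendrocytes and 38.1 to 38.3 in microglia and endothelial cells. Cyp51, the demethylase at carbon C14, stood at 187 CPM in control astrocytes, 118 in oligodendrocytes and 48.3 in endothelial cells. Nsdhl, the next C4 enzyme, was at 35.2 CPM in control astrocytes and at most 12.6 in the other 7 types drawn in the heat map. Sc5d and Dhcr7, which act last, were highest in astrocytes (78.2 and 36.9 CPM in the control), with oligodendrocytes at 72.1 and 26.6 and overlapping intervals for Sc5d. Hsd17b7, another C4 enzyme, was low everywhere (17.5 CPM in control astrocytes).

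Ebp, the sterol isomerase, did not follow the astrocytes. It was highest in microglia (91.2 CPM, 82.6 to 100.4, in the control and 119 CPM, 101 to 138, in EMF_AuNPs), next in oligodendrocytes (86.6 and 108), with overlapping intervals in both libraries, and lower in astrocytes (34.0 and 53.1). Control fibroblasts, on 16 UMIs, held 116 CPM (66.2 to 188.1). Red blood cells held 41.3 and 39.3 CPM of Ebp. The intervals of microglia and astrocytes were apart in both libraries. Those of microglia and red blood cells were apart in EMF_AuNPs (red blood cells 15.8 to 80.9) and overlapped in the control (11.3 to 105.8), where red blood cells held 4 UMIs of Ebp.

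The genes Tm7sf2 and Lbr code for enzymes that do the same step, reduction of the double bond at carbon C14, and the lamin B receptor Lbr also binds the nuclear lamina. They were highest in different cell types. Lbr was highest in endothelial cells (77.7 CPM, 70.3 to 85.6, in the control and 84.7, 74.5 to 96.0, in EMF_AuNPs) and low in astrocytes (15.3 and 14.3). Tm7sf2 was highest in astrocytes (15.3 and 26.7) and at 3.07 and 4.82 CPM in endothelial cells. Of the UMIs of both genes, which are not corrected for length, Tm7sf2 took 50% (41.9 to 58.1) in control and 65.0% (56.6 to 72.8) in EMF_AuNPs astrocytes. Its share was 3.8% and 5.38% in endothelial cells and 7.13% and 7.39% in oligodendrocytes.

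Among the control genes, Srebf1 was highest in ependymal cells, with 143 CPM (114 to 177) in the control and 179 (132 to 236) in EMF_AuNPs. Astrocytes followed at 101 (92.1 to 109.7) and 144 (132 to 157), so the intervals of both types were apart in the control library and overlapped in the EMF_AuNPs library. Microglia held 15.2 and 19.1 CPM of Srebf1. Srebf2, the form best known for driving cholesterol genes, stood at 20.8 and 25.2 CPM in astrocytes. Srebf1 took 82.8% of the UMIs of the 2 genes in control astrocytes, 83.2% in oligodendrocytes, 82.1% in microglia and 88.2% in choroid plexus cells.

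The retention genes differed by cell type. Insig1, itself a target of SREBPs, was highest in astrocytes (54.8 and 109.6 CPM) and oligodendrocytes (51.1 and 76.7), and stood at 15.6 and 27.5 in microglia. Insig2 ran from 38.3 CPM in control astrocytes to 69.7 in control smooth muscle cells among the 8 types, with control excitatory neurons at 93.0 (63.6 to 131.3) and control red blood cells at 31.0. Insig1 therefore took 58.9% (54.3 to 63.3) of the UMIs of both genes in control astrocytes and 54.1% (51.4 to 56.8) in oligodendrocytes, but 23.6% (18.9 to 28.8) in microglia and 30.8% (25.9 to 36.1) in endothelial cells. Scap, the escort, lay between 16.5 CPM in control microglia and 31.0 in control astrocytes in the 4 main types.

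Stard4, a carrier of cholesterol between membranes, was highest in endothelial cells. They held 36.0 CPM (31.1 to 41.6) in the control and 38.9 (32.1 to 46.8) in EMF_AuNPs, against 4.13 and 5.16 in astrocytes and 5.39 and 2.67 in oligodendrocytes. Ependymal cells were next on 6 and 5 UMIs (10.1 and 18.2 CPM), with an interval apart from the endothelial one in the control and overlapping it in EMF_AuNPs. Red blood cells held 0 UMIs of it, with 95% upper limits of 38.1 CPM in control and 20.7 CPM in EMF_AuNPs cells, so the control limit takes in the endothelial level. The 3 counts that a count of 0 allows stand for 31.0 and 16.8 CPM. Soat1, which esterifies cholesterol for storage, was highest in astrocytes (267 and 96.1 CPM) and next in microglia (86.1 and 62.1).

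**Figure D2:**
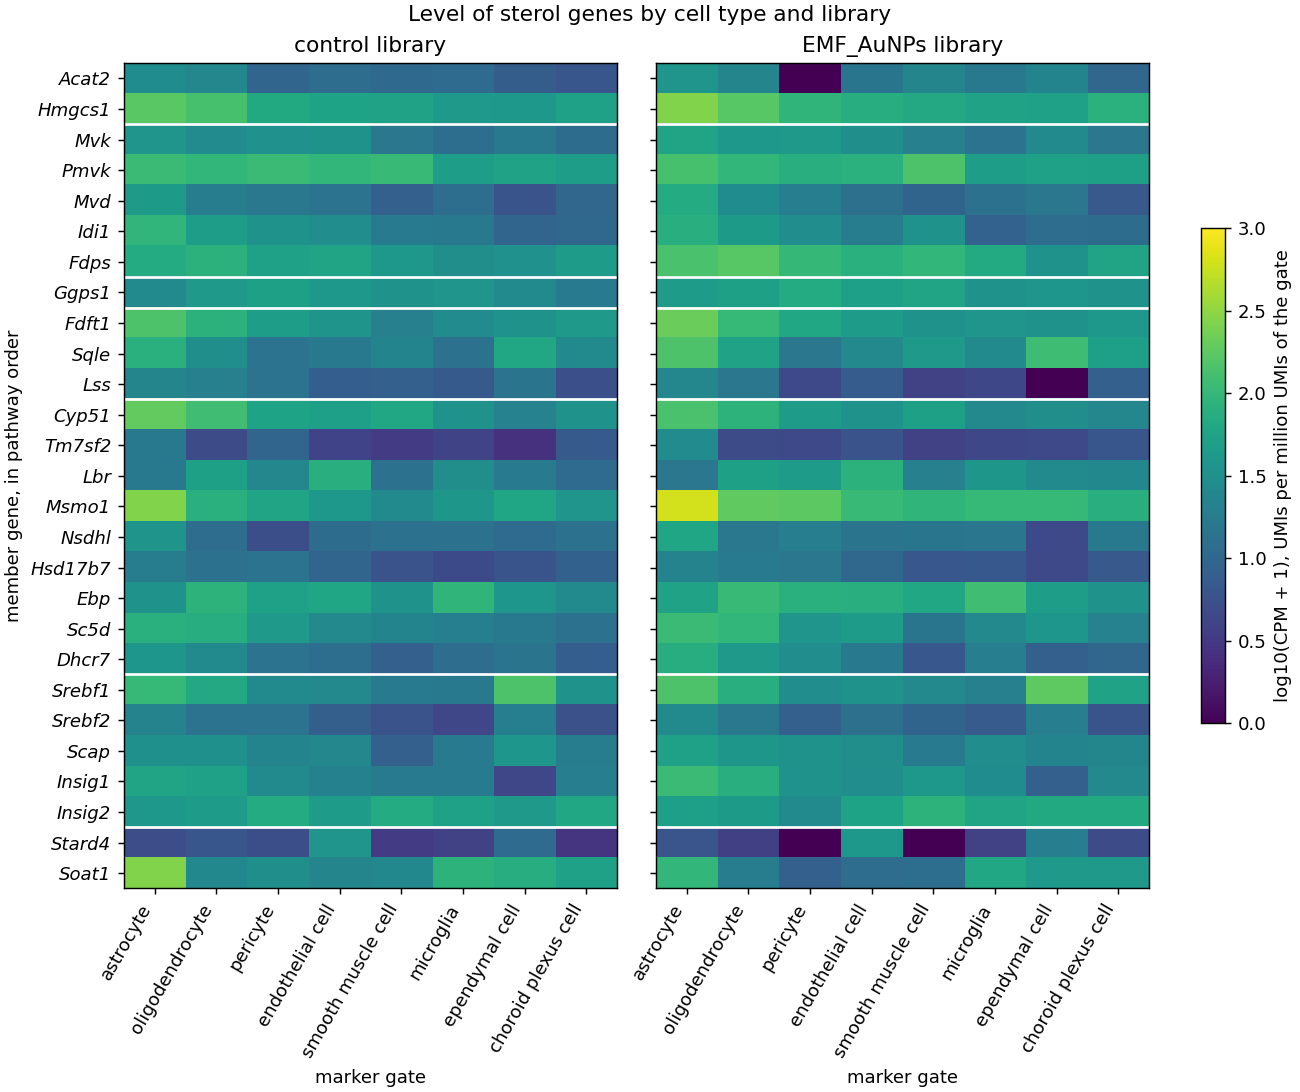
Level of the 27 members (rows, in pathway order) in 8 cell types (columns) of each library, as log10 of CPM plus 1, with white lines between pathway steps. Rows are to be read across, since UMIs of different genes are captured differently. Astrocytes are the highest of the compared types for 18 of 27 control and 19 of 27 EMF_AuNPs values. The share of all genes highest in astrocytes was not counted.

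In all, astrocytes were the highest of the 8 types drawn in the heat map for 18 of 27 members in the control library, 9 of them with an interval apart from that of the next type. In the EMF_AuNPs library the counts were 19 and 12. For 25 of the 27 members the highest type was the same in both libraries. How often other genes were highest in astrocytes, or kept their highest type, was not counted. These counts are therefore not set against a share of all genes. Across the 8 types, the level of Idi1 ranked like the sum of the other enzymes (Spearman rho 0.98 in the control and 0.86 in EMF_AuNPs). So did the levels of Hmgcs1 (0.93 and 0.76) and Sc5d (1 and 0.71). The ranks of Sqle (0.21 and 0.10), Nsdhl (0 and 0.43), Ebp (0.19 and 0.26) and Lbr (0.38 and -0.05) did not. Tm7sf2 (0.52 and 0.24) ranked only partly like that sum. These correlations describe 8 points that share a library and its free RNA.

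In astrocytes 11 of the 20 synthesis enzymes and 2 of the 5 control genes were counted at a higher level in the EMF_AuNPs than in the control library. A member is called higher or lower where the ratio of CPM, with 1 CPM added to both, passed 1.5-fold and its interval left out no change. With at least 20 UMIs over both libraries, 13 of 27 members were higher and 1 was lower, and all 14 passed both conditions. Of all 11893 genes with as many UMIs in astrocytes, 19.6% were past 1.5-fold higher and 8.74% past 1.5-fold lower. The median log2 ratio was 0.51 over the members, 0.62 over the 20 enzymes and 0.18 over all genes. Relative to that median of all genes, 5 members stayed higher (Fdps, Sqle, Msmo1, Dhcr7 and Insig1) and 2 were lower (Cyp51 and Soat1), beside 10.7% and 14.0% of all genes. Median depth was 1529 UMIs per control astrocyte and 2435 per EMF_AuNPs astrocyte, and its part in the result was not tested.

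Msmo1 showed the largest ratio among the members in astrocytes. The gene lies on the minus strand at chr8:64718139-64733792 (GRCm38). It had 1366 UMIs and 268 CPM in the control and 2193 UMIs and 629 CPM (603 to 656) in EMF_AuNPs, a log2 ratio of 1.23 (1.13 to 1.33). With Msmo1 left out, the sum of the other enzymes went from 1238 to 1680 CPM, a log2 ratio of 0.44 (0.39 to 0.49). The enzyme sum was thus larger in EMF_AuNPs astrocytes beyond counting error without its most abundant member, though under 1.5-fold.

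Upstream of squalene, Fdps went from 69.9 CPM in control to 137 in EMF_AuNPs astrocytes (log2 ratio 0.96, 0.76 to 1.17). Hmgcs1 went from 169 to 266.5 CPM (0.65, 0.52 to 0.79). Mvd went from 41.6 to 69.7 CPM (0.73, 0.47 to 1.02). Each of these 3 enzymes was higher in the EMF_AuNPs library. Mvk (0.61) and Ggps1 (0.75) were also higher, though Mvk was at 0.51, under 1.5-fold, with 10 CPM added, whereas Pmvk had a log2 ratio of 0.29 and Acat2 of 0.35, both under 1.5-fold.

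Idi1 was the exception among the early enzymes, at 92.1 CPM (84.0 to 100.9) in the control and 76.0 (67.1 to 85.7) in EMF_AuNPs astrocytes, a log2 ratio of -0.27 (-0.50 to -0.06). Sqle was higher, from 79.8 to 144 CPM (log2 ratio 0.85, 0.66 to 1.05), and Fdft1 stood at 146 and 203 CPM (0.48, 0.33 to 0.63), under 1.5-fold. Lss showed no difference beyond its interval (0.09, -0.33 to 0.52).

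In the steps from lanosterol to cholesterol the members split. Dhcr7, the last reductase, went from 36.9 to 72.6 CPM (log2 ratio 0.96, 0.70 to 1.25), Nsdhl from 35.2 to 57.9 (0.70, 0.42 to 1.02), Ebp from 34.0 to 53.1 (0.63, 0.34 to 0.95) and Tm7sf2 from 15.3 to 26.7 (0.76, 0.35 to 1.25). These 4 were higher, together with Msmo1, but with 10 CPM added Ebp (0.52) and Tm7sf2 (0.53) were under 1.5-fold. Cyp51 went against them, with 187 CPM (176 to 200) in the control and 136 (124 to 148) in EMF_AuNPs, a log2 ratio of -0.46 (-0.63 to -0.31). Cyp51 lies over Akap9 on the other strand, and the sources used here do not say whether the counting used strand. The same limit holds for Hmgcs1 (over Gm48342), Mvd (Gm20388), Idi1 (Gm48574), Ggps1 (Arid4b), Fdft1 (Ctsb), Lss (4930483K19Rik), Lbr (Dnah14), Srebf1 (Rai1), Scap (5830462I19Rik), Insig2 (Gm37174) and Soat1 (Gm37648). Fdps, Tm7sf2 and Srebf2 overlap Gm43738, Vps51 and Gm49502 on their own strand, so counts at those loci are less certain. Sc5d stood at 78.2 and 110.4 CPM (0.49), Hsd17b7 had a log2 ratio of 0.27 and Lbr of -0.09, all under 1.5-fold.

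Of the control genes, Insig1 went from 54.8 CPM (48.6 to 61.6) to 109.6 (98.9 to 121.1) in astrocytes, a log2 ratio of 0.99 (0.77 to 1.23). Scap went from 31.0 to 50.8 CPM (0.69, 0.39 to 1.03), a ratio of 0.57, under 1.5-fold, with 10 CPM added. Both were higher, while Srebf1 (101 and 144 CPM, 0.51), Insig2 (38.3 and 48.8, 0.34) and Srebf2 (20.8 and 25.2, 0.27) were under 1.5-fold. The Insig1 share of Insig1 plus Insig2 UMIs went from 58.9% (54.3 to 63.3) to 69.2% (65.2 to 73.0), so the intervals of both libraries were apart.

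Soat1, on the minus strand at chr1:156424525-156474331 (GRCm38), was the 1 member lower in EMF_AuNPs astrocytes, with 1357 UMIs and 267 CPM (253 to 281) in the control and 335 UMIs and 96.1 CPM (86.1 to 107.0) in EMF_AuNPs. Its log2 ratio was -1.46 (-1.65 to -1.30), larger in size than that of any other member in astrocytes. After thinning every cell to 1000 UMIs, Soat1 was seen in 22.8% (21.1 to 24.6) of control and 10.5% (8.74 to 12.4) of EMF_AuNPs astrocytes, and Msmo1 in 23.8% (22.1 to 25.6) and 43.9% (40.9 to 46.8). The unthinned shares were 35.2% and 20.7% for Soat1 and 34.5% and 64.8% for Msmo1. Unthinned red blood cells showed Soat1 in 2.66% and 1.4% and Msmo1 in 1.52% and 12.3%. These shares are not at equal depth with those of astrocytes. Median depths were 1587 and 1842.5 UMIs in red blood cells, at least 50% of them haemoglobin in each cell, against 1529 and 2435 in astrocytes. By CPM, red blood cells held 27.1% and 29.2% of the astrocyte level of Soat1 and 15.4% and 42.8% of that of Msmo1.

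**Figure D3:**
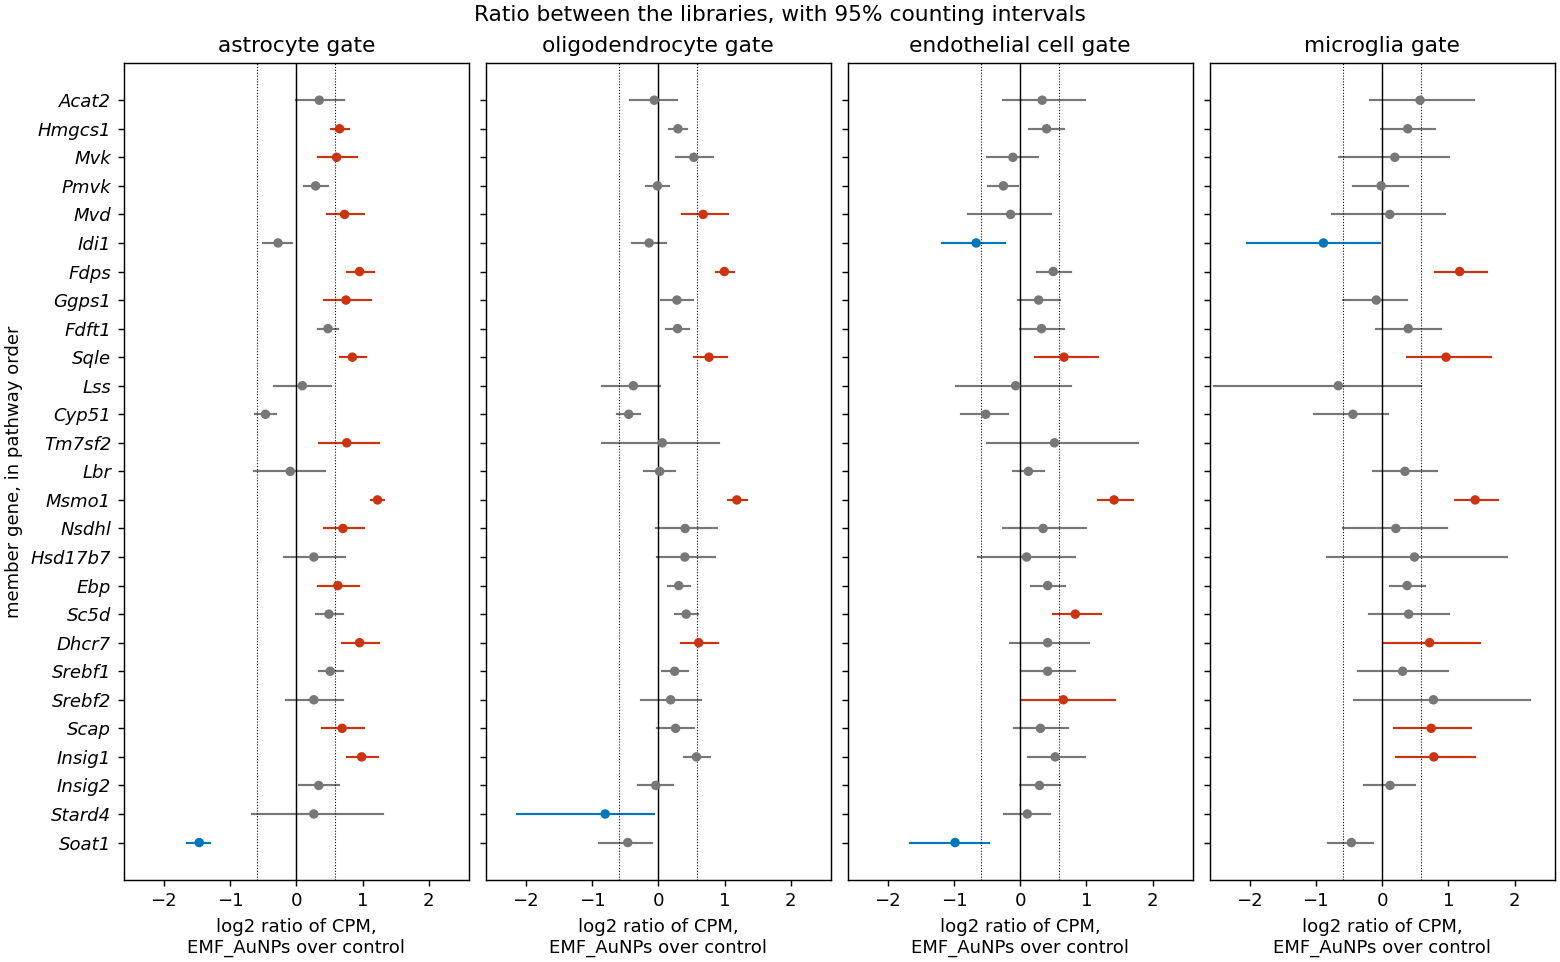
Log2 ratio of CPM, EMF_AuNPs over control (horizontal axis), of each member with at least 20 UMIs (vertical axis, in pathway order) in the 4 main cell types, with 95% counting intervals as lines. Red marks members called higher, blue those called lower and grey the rest, and dotted lines stand at 1.5-fold. Msmo1 is red in all 4 types, from 1.19 in oligodendrocytes to 1.42 in endothelial cells, and Soat1 is blue in astrocytes and endothelial cells.

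Oligodendrocytes showed a narrower difference, in which 5 of 27 members were higher and 1 was lower. All 6 had intervals that left out no change. Of 12454 genes, 9.28% were past 1.5-fold higher and 9.53% lower, and the median log2 ratio was 0.28 over the members and 0.02 over all genes. Fdps went from 82.8 to 166 CPM (log2 ratio 1.00, 0.86 to 1.15) and Msmo1 from 79.7 to 182.5 CPM (169 to 197), a ratio of 1.19 (1.06 to 1.33). Sqle went from 30.1 to 51.8 CPM (0.77, 0.53 to 1.03), Mvd from 17 to 27.8 (0.68, 0.36 to 1.05) and Dhcr7 from 26.6 to 41.1 (0.61, 0.35 to 0.90). With 10 CPM added, Mvd (0.49) and Dhcr7 (0.48) were under 1.5-fold. All comparisons between the libraries, whatever the cell type, rest on the same 2 libraries.

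The lower member was Stard4, with 78 UMIs in 5802 control oligodendrocytes and 10 UMIs in 1107 EMF_AuNPs oligodendrocytes (log2 ratio -0.80, -2.13 to -0.06). With 10 CPM added, Stard4 was not among the 3 members left past 1.5-fold. Insig1 stood at 51.1 and 76.7 CPM (0.58, 0.39 to 0.79), just under 1.5-fold, and its share of Insig1 plus Insig2 UMIs was 54.1% (51.4 to 56.8) and 64.5% (59.9 to 68.9). Hmgcs1 (134 and 165 CPM, 0.30), Ebp (86.6 and 108, 0.31) and Srebf1 (63.5 and 75.6, 0.25) were under 1.5-fold. Cyp51 again had less in EMF_AuNPs, 118 and 86.3 CPM (-0.44, -0.62 to -0.28), under 1.5-fold. Soat1 stood at 24.3 and 17.4 CPM (-0.46). The control level was 9.10% of that of astrocytes, where astrocyte markers stood at 10.5%, and the EMF_AuNPs level was 18.1%, where they stood at 7.95%.

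In endothelial cells 4 of 27 members were higher and 2 were lower, beside 13.2% and 8.09% of 11737 genes, with medians of 0.32 over the members and 0.09 over all genes. Msmo1 went from 38.3 CPM (33.2 to 44.0) to 104 CPM (92.6 to 116.4), a log2 ratio of 1.42 (1.18 to 1.70). Its endothelial level was 14.3% of the astrocyte level in the control and 16.5% in EMF_AuNPs, where astrocyte markers stood at 11.3% and 8.62%. With RNA of other types subtracted, endothelial Msmo1 was 1.55 and 26.4 CPM, a log2 ratio of 3.43 that rests on a control level near 0.

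Sc5d, the desaturase before Dhcr7, went from 24.9 to 45.1 CPM in endothelial cells (log2 ratio 0.83, 0.49 to 1.22) and Sqle from 15.5 to 25.1 (0.66, 0.22 to 1.17). Srebf2 was also higher (0.65, 0.01 to 1.43), on 37 and 34 UMIs. Idi1 was lower, with 29.0 CPM in the control and 17.9 in EMF_AuNPs (-0.66, -1.18 to -0.23), and so was Soat1, with 22 and 10.7 CPM (-0.98, -1.67 to -0.46). With 10 CPM added, the 3 members left past 1.5-fold were Msmo1, Sc5d and Soat1, while Sqle (0.46), Idi1 (-0.48) and Srebf2 were under it. Endothelial Soat1 was 8.27% and 11.1% of its astrocyte level, close to the astrocyte markers' 11.3% and 8.62%. After subtraction it stood at -13.1 and -2.48 CPM, so no ratio was left. The endothelial members Lbr (77.7 and 84.7 CPM, 0.12, -0.11 to 0.36) and Stard4 (36.0 and 38.9, 0.11, -0.24 to 0.45) did not differ beyond their intervals.

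Microglia had 25 members with at least 20 UMIs. Past 1.5-fold, 7 were higher, 6 of them with an interval that left out no change, and 2 were lower, 1 of them with such an interval. Of 11172 genes, 11.4% were higher and 15.0% lower, and the medians were 0.38 over the members and -0.02 over all genes. Msmo1 went from 38.1 CPM (32.6 to 44.2) to 102 (86.4 to 120.5), a log2 ratio of 1.4 (1.10 to 1.75), and Fdps from 29.3 to 67.1 CPM (1.17, 0.80 to 1.59). Insig1 went from 15.6 to 27.5 CPM (0.78, 0.21 to 1.4) and Scap from 16.5 to 28.2 (0.74, 0.18 to 1.35), both under 1.5-fold with 10 CPM added (0.55 and 0.53). Sqle (0.96) and Dhcr7 (0.72) were higher and Idi1 (-0.89) was lower, each on fewer than 100 UMIs over both libraries. With 10 CPM added, Dhcr7 and Idi1 were also under 1.5-fold.

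The microglial Msmo1 level was 14.2% of that of astrocytes in the control library, where astrocyte markers stood at 14.9%, and 16.3% in the EMF_AuNPs library, where they stood at 10.7%. After subtraction the control level of Msmo1 and of Sqle in microglia was below 0 CPM, so no ratio was left, while Fdps kept 12.8 and 35.1 CPM (log2 ratio 1.38). Idi1, called lower in microglia, stood at -1.52 and -4.68 CPM after subtraction, so it kept no ratio either. As counted, it was 16.5% and 10.2% of its astrocyte level, close to the astrocyte markers' 14.9% and 10.7%. Ebp (91.2 and 119 CPM, 0.38, 0.11 to 0.64) and Insig2 (50.6 and 55.1, 0.12) were under 1.5-fold. Soat1 stood at 86.1 and 62.1 CPM (-0.46, -0.82 to -0.13), also under 1.5-fold, and at 43.3 and 49.4 CPM after subtraction, where the ratio changed sign to 0.18.

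Choroid plexus cells, which make cerebrospinal fluid, hold the most UMIs per cell (medians 11934.5 and 13363.5) and the lowest level of astrocyte markers among the types given above. Of 26 members, 9 were past 1.5-fold higher, 7 with an interval that left out no change, and 0 were lower. The background was high as well, with 29.2% of 10334 genes higher and 5.73% lower, and medians of 0.35 over the members and 0.30 over all genes. Relative to the median of all genes, 4 members were higher (Ggps1, Sqle, Lbr and Msmo1) and 3 were lower, beside 12.9% and 13.2% of all genes. Msmo1 went from 36.1 to 74.6 CPM (log2 ratio 1.03, 0.73 to 1.36) and Lbr from 10.3 to 24.2 (1.16, 0.66 to 1.81). Sqle went from 26.0 to 48.9 CPM (0.89, 0.53 to 1.29). The choroid plexus level of Msmo1 was 13.5% and 11.9% of that of astrocytes, where astrocyte markers stood at 2.02% and 1.57%.

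The smaller types held fewer UMIs. Msmo1 went from 55.6 to 177 CPM in pericytes (26 and 49 UMIs, log2 ratio 1.65, 0.95 to 2.41), from 26.4 to 91.0 in smooth muscle cells (11 and 33 UMIs, 1.75, 0.76 to 2.92) and from 58.8 to 102 in ependymal cells (35 and 28 UMIs, 0.79, 0.02 to 1.55). In red blood cells it went from 41.3 CPM on 4 UMIs to 269 CPM on 48 UMIs (2.67, 1.25 to 4.64). Msmo1 was thus higher in the EMF_AuNPs library also in red blood cells, which in mature form should not make it. How much of its ratio in each type came from free RNA was not tested beyond the subtraction. In ependymal cells Sqle went from 62.2 to 117 CPM (37 and 32 UMIs, 0.90, 0.18 to 1.63).

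**Figure D4:**
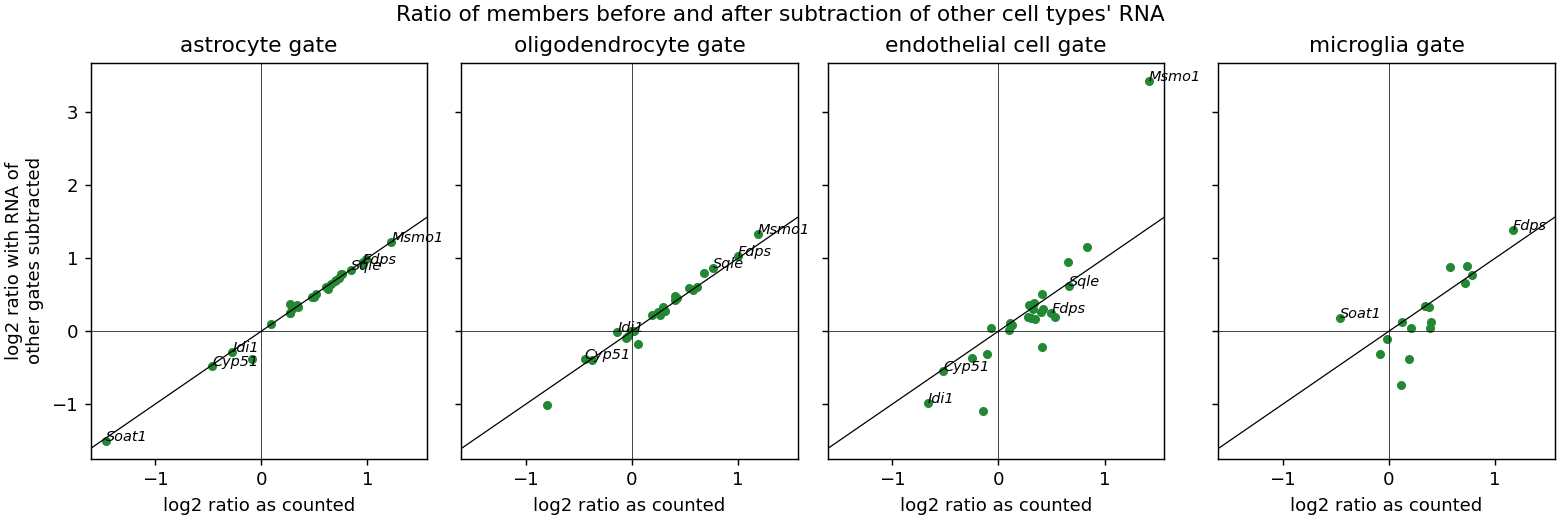
Log2 ratio of each member in the 4 main types as counted (horizontal axis) and with RNA in proportion to other types' markers subtracted (vertical axis), with a diagonal where both are equal. In astrocytes Msmo1 is at 1.23 and 1.22 and Soat1 at -1.46 and -1.5, close to the diagonal, whereas endothelial Msmo1 moves from 1.42 to 3.43. Members left with too little level after subtraction are not drawn.

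Subtraction changed ratios in astrocytes and oligodendrocytes as well. Astrocyte Fdps had 0.92 after subtraction against 0.96 as counted, Insig1 0.99 and 0.99, and Cyp51 -0.48 and -0.46. In oligodendrocytes Msmo1 had 1.33 against 1.19 and Fdps 1.03 against 1.00, and Soat1 kept no level in the control. Ebp in astrocytes went from 0.63 to 0.58, under 1.5-fold, which left 13 of 14 members past it, and Mvk in oligodendrocytes went from 0.54 to 0.60, past it. Some members moved more, such as Lbr in astrocytes (-0.09 to -0.38), Stard4 in oligodendrocytes (-0.80 to -1.01) and Tm7sf2 in oligodendrocytes (0.06 to -0.17). The plot of ratios before and after subtraction shows a wider scatter in endothelial cells and microglia.

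Spread over single cells was examined after thinning to 1000 UMIs outside haemoglobin, which left out 547 control and 254 EMF_AuNPs astrocytes. Astrocytes then held a mean of 1.51 synthesis enzyme UMIs per cell in the control and 2.29 in EMF_AuNPs. Cells with 0 such UMIs were 25.1% and 14.1%, and cells with at least 5 were 2.83% and 10.8%. The variance was 1.16 times the mean in the control and 1.35 times in EMF_AuNPs, where counts drawn at 1 common rate would give a value of 1. In the plot of UMIs per cell, EMF_AuNPs astrocytes were more frequent than control astrocytes at every number from 2 to 5 UMIs.

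Oligodendrocytes held means of 1.04 and 1.38 UMIs per cell, with variances of 1.14 and 1.16 times the mean. Endothelial cells held 0.697 and 0.882, and microglia 0.504 and 0.700, with variances within 0.991 to 1.04 times the mean. At a depth of 500 UMIs, which 31 control and 125 EMF_AuNPs red blood cells reached, red blood cells held 0.387 and 0.672 enzyme UMIs per cell. The means at that depth were 0.754 and 1.05 in astrocytes, and 0.517 and 0.690 in oligodendrocytes, whose EMF_AuNPs mean lay close to that of red blood cells. Those of endothelial cells (0.358 and 0.414), microglia (0.264 and 0.367) and choroid plexus cells (0.219 and 0.262) were below the red blood cell values, so at this depth expression by those cells and free RNA cannot be told apart by this measure. Red blood cells also held more astrocyte marker RNA than these types, by the shares given above, so their value is not the background of each type.

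**Figure D5:**
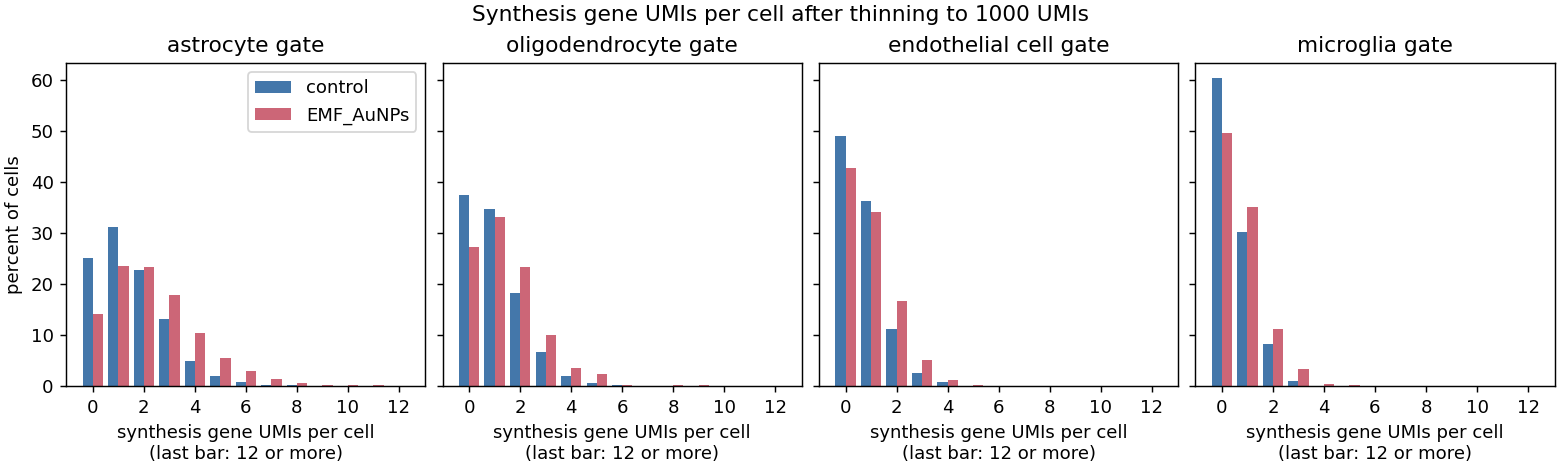
Percent of cells (vertical axis) by the number of synthesis enzyme UMIs per cell after thinning to 1000 UMIs (horizontal axis), in the 4 main cell types, with blue bars for the control and red bars for the EMF_AuNPs library. In astrocytes the bar at 0 is 25.1% in the control and 14.1% in EMF_AuNPs, and the EMF_AuNPs bars are taller from 2 UMIs up.

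Genes around the pathway were counted from lists of related genes. The shares of all genes past 1.5-fold higher and lower, to be set beside each count, are 19.6% and 8.74% in astrocytes, 9.28% and 9.53% in oligodendrocytes, 13.2% and 8.09% in endothelial cells and 11.4% and 15.0% in microglia. Of 15 genes of the fatty acid branch of SREBP control, all with at least 20 UMIs in astrocytes, 5 were past 1.5-fold higher and 0 lower, with a median log2 ratio of 0.30, beside a median of 0.18 over all genes. Elovl5, a fatty acid elongase, went from 95.7 to 241 CPM in astrocytes (1.33, 1.17 to 1.5) and Scd1, a desaturase, from 58.0 to 118 (1.02, 0.81 to 1.25). Elovl5 was higher in the other main types too, with log2 ratios of 0.81 in oligodendrocytes, 1.21 in endothelial cells and 1.10 in microglia. The list had 1 of 14 higher and 1 lower in oligodendrocytes, 1 of 13 higher and 0 lower in endothelial cells, and 3 of 14 higher and 1 lower in microglia. Elovl6 had less in EMF_AuNPs oligodendrocytes, 129.8 and 91.1 CPM (-0.51, -0.68 to -0.34), under 1.5-fold.

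Of 7 genes for the proteases, escorts and degradation factors that act on SREBPs and Insigs, 3 were past 1.5-fold higher and 1 lower in astrocytes, with a median of 0.22 beside 0.18 over all genes. Rnf139, a ubiquitin ligase of the endoplasmic reticulum, went from 30.6 to 49.9 CPM in astrocytes (log2 ratio 0.69, 0.38 to 1.02). The counts for this list were 1 higher and 0 lower in oligodendrocytes, 3 and 0 in endothelial cells and 0 and 1 in microglia. In EMF_AuNPs microglia there was less Ubxn8 (-0.59, -1.30 to 0.01) and Erlin2 (-0.47, -0.95 to -0.03). Sterol transport and efflux genes had 2 of 16 higher and 1 lower in astrocytes (median 0.24, beside 0.18 over all genes), 1 and 1 of 16 in oligodendrocytes, 1 and 0 of 13 in endothelial cells and 3 and 0 of 14 in microglia. Gramd1a, a sterol transfer protein at membrane contacts, went from 29.3 to 48.5 CPM in astrocytes (0.71, 0.40 to 1.06), and Vldlr, a lipoprotein receptor, from 15.9 to 24.7 (0.60, 0.18 to 1.09). In EMF_AuNPs microglia there was less Osbp (-0.51, -1.09 to 0.003) and Lrp1 (-0.43, -0.59 to -0.27), both under 1.5-fold.

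Chaperone and stress genes of the endoplasmic reticulum, where Scap and the Insigs reside, went in both directions. Of 12, 2 were past 1.5-fold higher and 2 lower in astrocytes, 1 and 2 in oligodendrocytes, 3 and 1 in endothelial cells, and 2 and 2 in microglia, with medians of 0.06, -0.09, -0.03 and -0.06. Pdia4, a disulfide isomerase, was lower in all 4 types, from 96.8 to 45.0 CPM in astrocytes (log2 ratio -1.09, -1.37 to -0.84) and from 72.0 to 36.9 in oligodendrocytes (-0.95, -1.23 to -0.71). Sdf2l1, an endoplasmic reticulum protein, went from 11.2 to 24.7 CPM in astrocytes (1.07, 0.64 to 1.65). Dnajb9, a cochaperone, was higher in oligodendrocytes (28.8 to 58.8 CPM, 1.00) and endothelial cells (38.3 to 85.4, 1.13), and in microglia (37.2 to 74.8, 0.99, 0.64 to 1.37).

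Myelin genes, whose membranes take up much of the cholesterol that oligodendrocytes make, were past 1.5-fold higher for 3 of 12 in oligodendrocytes (median log2 ratio 0.42), and 0 were lower. Cldn11 went from 1480 to 3010 CPM there (1.02, 0.99 to 1.06). In types that should lack them, 10 of 12 were higher in astrocytes, 10 in endothelial cells and 11 in microglia. Cldn11 stood at 45.6 and 162 CPM in astrocytes and at 44.3 and 236 in microglia, so more oligodendrocyte RNA was counted outside oligodendrocytes in the EMF_AuNPs library. Its part in the ratios of the members in those types was not tested beyond the subtraction given above. Mog, Mag, Mobp, Cldn11, Ugt8a and Aspa of the myelin list are also markers that assigned oligodendrocytes. The cut was set on them in each library, and barcodes that passed for several types were left out. Counts of these genes within and outside oligodendrocytes are therefore not independent of the assignment.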

How the data were processed

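The deposited matrices hold raw counts of UMIs per gene and barcode, per the file headers. The submitters' processing notes name Cell Ranger 3.0.2, STAR and the mm10 build. The annotation, the STAR version and whether counting used strand were not given in the sources used here.

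A barcode entered a cell type when at least 50% and at least 3 of its markers were seen and their level reached 25% of that type's median. Barcodes that passed for several types were left out. Red blood cells were barcodes with at least 50% haemoglobin UMIs that passed for no other type, though they could hold some of its markers. Of 155 markers, 5 were absent from the matrices. A gated cell counted as near the cut with a level under 1.4 times it or with exactly the fewest markers needed. For red blood cells a smaller margin above the haemoglobin cut was used. Such cells were 9.09% of control and 11.2% of EMF_AuNPs gated cells. Beyond the mixed barcodes, doublets were not removed. As an alternative, the highest Scrublet scores were left out up to the expected rate (17.3% and 5.60%), since the automatic threshold marked 0.143% of EMF_AuNPs barcodes.

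UMIs were summed per type and library in the 10 types with at least 50 cells in each. Haemoglobin genes (1.42% and 4.57% of UMIs) were left out of the totals. CPM has exact Poisson intervals, ratios exact conditional binomial intervals, without the added 1 CPM, and shares Clopper-Pearson intervals. The text gives full values for members with at least 100 UMIs in a type. It names those past 1.5-fold with an interval leaving out 0 in the 4 main types. Named genes of each related list were taken from the 2 with the largest absolute ratio in each main type. Only list genes with at least 100 UMIs in that type were considered. Members of lower count are named where they are highest. Values of 1 gene of a related list are not reported here. The members and lists were chosen with earlier results of these data known. Gene positions come from GENCODE M21. Ratio and interval code was tested on simulated data. Python 3.11.15, numpy 2.4.6, scipy 1.17.1, pandas 2.3.3, scanpy 1.11.5 and matplotlib 3.10.9 were used.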

Additional observations from a re-analysis of the deposited data

How the results depend on the processing

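The members' counts past 1.5-fold and their medians were recomputed in 5 cell types with cells of at least 1000 UMIs, with 1 more marker required, with doublet calls left out, with 10 CPM added, centred on the median of all genes and with no minimum of UMIs, and, chosen after seeing the data, with RNA of other types subtracted. With 10 CPM added, the members past 1.5-fold fell from 14 to 10 in astrocytes, from 6 to 3 in oligodendrocytes, from 6 to 3 in endothelial cells, from 9 to 3 in microglia and from 9 to 4 in choroid plexus cells. The shares of all genes past 1.5-fold were not recomputed with 10 CPM added. Whether the members still differ from all genes at that setting was therefore not tested. Centring left 7 in astrocytes and a member median of 0.053 in choroid plexus cells. Subtraction gave enzyme sums of 1427 (control) and 2176 CPM (EMF_AuNPs) in astrocytes, 869 and 1143 in oligodendrocytes, 415 and 457 in endothelial cells, 189 and 266 in microglia, and 347 and 490 in choroid plexus cells. None of the medians and called ratios that could be recomputed changed sign. Microglial Soat1, under 1.5-fold, went from -0.46 to 0.18 after subtraction. Of the named ratios, centring moved Hmgcs1 (0.47) and Msmo1 (1.04) in astrocytes outside their counting intervals, and subtraction moved Msmo1 in endothelial cells (3.43). Where subtraction left a level of 1 CPM or less in either library, no ratio was given. Thinning to 500 UMIs gave smaller differences in the share of cells with Msmo1 in the 4 main types. A lower depth makes such shares smaller by itself, so this is no check of the result. For Soat1 the difference in microglia went from -0.06 to -0.78 percentage points, and those in the other main types became smaller. No paired analysis was possible because each group has 1 library, and no replicate could be left out. Low counts limit pericytes, smooth muscle and ependymal cells, where 15, 11 and 13 of the 27 members had 20 UMIs.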
